A study of Homo sapiens with 6 samples.

Results

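Cytotoxic T cells kill a target cell in several ways. Ligands on the T cell engage death receptors of the TNF receptor family, which assemble the adaptor FADD and caspase-8 on the inner face of the membrane. Granzymes delivered through perforin pores cleave BID and caspases directly. Both routes can pass through the mitochondrion, where BAX and BAK release cytochrome c and SMAC/DIABLO unless relatives of BCL2 hold them back, and where released cytochrome c makes APAF1 activate caspase-9. Inhibitors act at each step: decoy receptors, FLIP on caspase-8, inhibitor of apoptosis proteins (IAPs) on caspases, and BCL2, BCL-XL and MCL1 at the mitochondrial membrane.

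Described here are 31 genes of this machinery, taken by symbol from a deposited table of 29744 gene symbols. All 31 were in the table and all 31 passed the filter on low counts that left 14958 genes for testing. By textbook role 21 were classed as activators of cell death and 8 as inhibitors. The remaining 2, RIPK1 and TNFRSF1B, were classed as both because they can signal for death or for survival. The RNA came from cultures of MKN45, an established human gastric cancer line labelled sensitive, and of 2 derivatives resistant to a T cell bispecific antibody (TCB). A TCB joins a tumour antigen to the T cell receptor complex. HER2R (MKN-HER2R) resists a HER2-TCB. Its cell line is given as MKN45-HER2, and the labels do not say whether those cells had been modified first. CEAR (MKN-CEAR) resists a CEACAM5-TCB. Medium for every line was serum-supplemented DMEM/F-12, and no treatment, T cells or antibody are listed for the cultures that gave the RNA. There were 2 libraries per line and 6 in all, and no source says whether a line's libraries were grown as separate cultures or from separate clones. The p-values therefore reflect the spread of these samples alone, and that spread may be technical.

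Library totals ran from 39657353 to 57964246 counts. Levels are in CPM, counts scaled to library totals that TMM had adjusted, where 1 count was 0.0177 to 0.0255 CPM. All 10 gastric epithelial markers passed the filter and summed to 8411 to 15580 CPM. That sum was KRT8, KRT18 and KRT19 for the most part, and EPCAM and CDH1 were at 397.8 CPM or more. The other markers were low in some libraries. MUC6, a gland mucin, had 0 to 2 counts in each MKN45 and HER2R library, and CLDN18 stood at 2.09 to 2.83 CPM there. MUC5AC had 6 and 130 counts and TFF2 1 and 28 in HER2R. TFF1 ran from 5.155 to 173.5 CPM over all 6 libraries. The 12 T and NK cell markers had no member past the filter and summed to 0.0709 to 0.434 CPM, with CD3D, CD2, NKG7, GZMB and PRF1 at 0 counts in all 6 libraries. Endothelial markers summed to 0.0177 to 0.255 CPM, with CDH5 and KDR at 0, and fibroblast markers to 0.978 to 7.67 CPM, with COL3A1 and DCN at 0. The fibroblast sum was COL1A1 for the most part, which passed the filter. COL1A1 stood at 1.683 and 0.591 CPM for MKN45, 7.439 and 3.545 for HER2R, and 1.686 and 1.101 for CEAR. LUM had 5 and 15 counts in MKN45 and 0 in the derivatives. Myeloid markers summed to 365 to 1197 CPM, which was LYZ for the most part, a gene that gastric cells also express, and CSF1R and FCGR3A were at 0. In bulk RNA, fewer cells with a transcript and less of it per cell cannot be told apart.

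Of the 31 genes, 6 passed the edgeR test without a replicate block in at least 1 comparison, and no activator did. That absence depends on the test. With library number as a block, 2 activators were called higher and 6 lower in HER2R against MKN45, 3 and 5 in CEAR against MKN45, and 2 and 4 in HER2R against CEAR. DESeq2 called 1 and 5, 0 and 4, and 2 and 1 activators. Over all tested genes the block called 33.7%, 25.8% and 38.2% in those comparisons, and DESeq2 18.9%, 14.0% and 22.9%. MCL1 was higher in HER2R. BCL2L1, XIAP and TNFRSF10C were lower in CEAR. TNFRSF1B was higher in HER2R, and RIPK1 differed between the resistant lines. In HER2R against MKN45, the quasi-likelihood test of edgeR, adjusted by Benjamini and Hochberg's method over all tested genes (threshold 0.05), called 2 members higher and 0 lower, where it called 9.74% of all tested genes, 4.89% higher and 4.85% lower. In CEAR against MKN45 it called 0 higher and 3 lower, against 6.19% of all tested genes, 2.57% higher and 3.62% lower. In HER2R against CEAR it called 3 higher and 1 lower, against 14.1% of all, 7.32% higher and 6.75% lower. Those are 2, 3 and 4 of 31 members, beside 9.74%, 6.19% and 14.1% of genes at large. DESeq2 called 10 members in HER2R (18.9% of all genes), 9 in CEAR (14.0%) and 7 between the derivatives (22.9%). At an unadjusted p under 0.05, edgeR passed 12 (28.6%), 14 (23.3%) and 9 (32.0%).

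Libraries carry the number 1 or 2 in the labels, and libraries of the same number deviated from their line means together, which was taken as pairing (the replicate block). Adding the number to the model raised the calls to 14 members in HER2R (5 higher, 9 lower), 14 in CEAR (6 higher, 8 lower) and 11 between the derivatives (6 higher for HER2R, 5 lower). The background rose as well, to 33.7% of all genes in HER2R (16.2% higher, 17.5% lower), 25.8% in CEAR (12.0% higher, 13.8% lower) and 38.2% between them (19.7% higher, 18.6% lower). Values "with the block" come from that model.

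**Figure D1:**
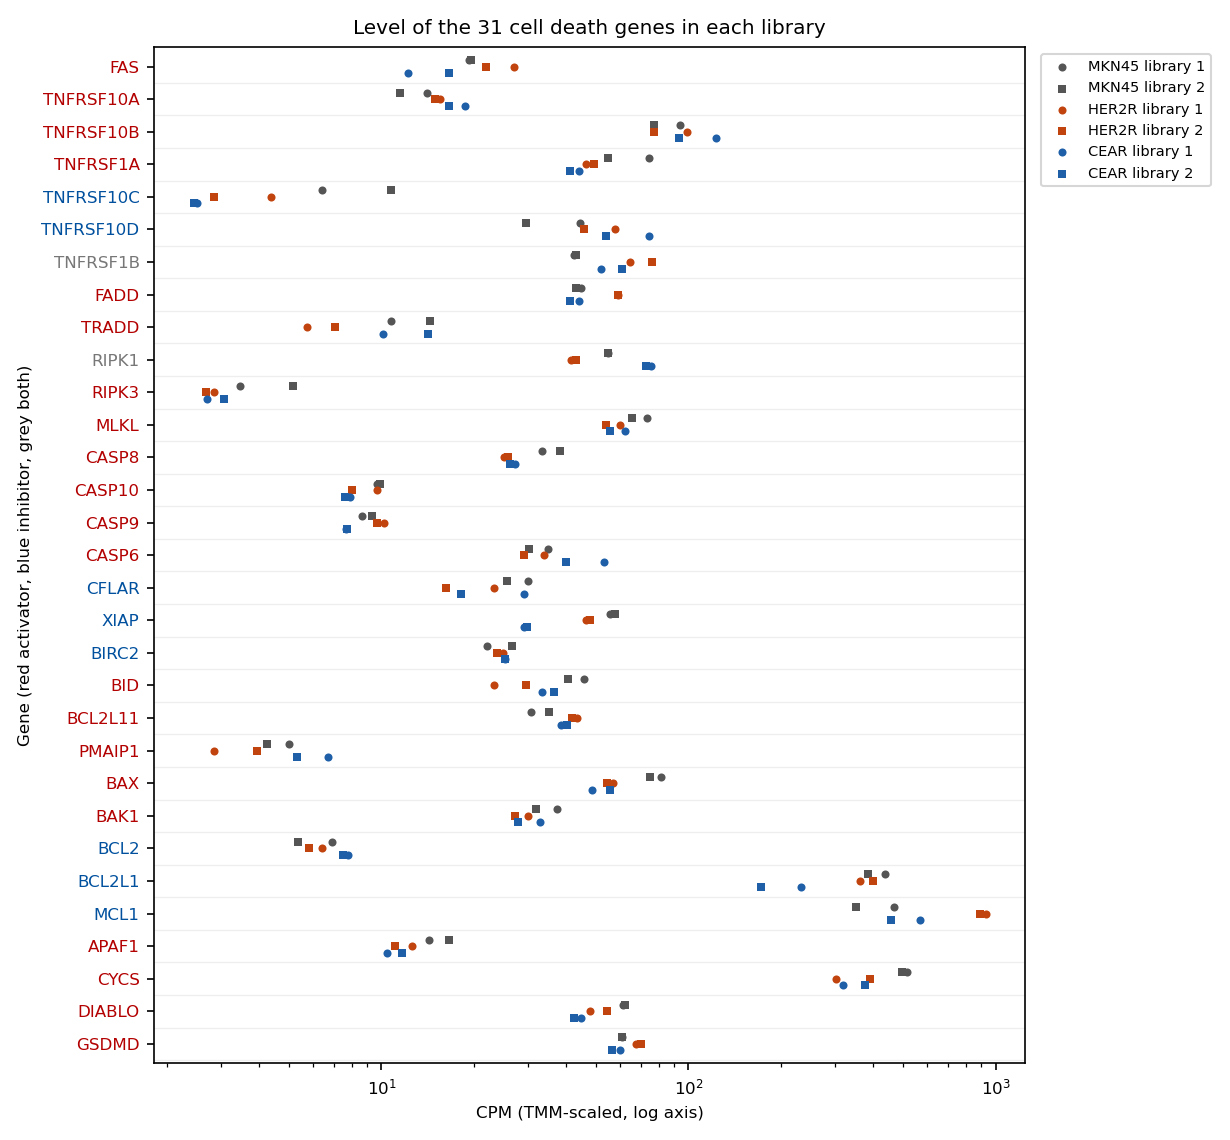
Level of each of the 31 genes in each of the 6 libraries, in CPM on a log axis, coloured by line, with circles for library 1 and squares for library 2. BCL2L1, MCL1 and CYCS stand highest, at 172 CPM or more in all 6 libraries, and TNFRSF10C, RIPK3, PMAIP1 and BCL2 lie among the lowest.

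Of the 4 death receptors among the 31 genes, edgeR without the block called none in any comparison, and DESeq2 called FAS in HER2R against CEAR (adjusted p = 0.0108) and TNFRSF1A in CEAR against MKN45 (0.0367). FAS, the receptor for FAS ligand, stood at 19.3 and 19.6 CPM for MKN45, 27.0 and 21.9 for HER2R, and 12.2 and 16.6 for CEAR. Its HER2R libraries lay above MKN45 and its CEAR libraries below. ACTA2 overlaps FAS on the other strand, with up to 523 counts in a library where FAS had 505 to 1092, and RHOBTB2 overlaps TNFRSF10B likewise, with up to 1359 counts beside 3037 to 5309. No source used here says whether reads were counted by strand, so reads of such partners may be mixed. The log2 fold change of HER2R against CEAR was 0.77 (SE 0.210, edgeR adjusted p = 0.0580), and edgeR adjusted p = 0.0120 with the block. TNFRSF10A and TNFRSF10B encode the TRAIL receptors DR4 and DR5. TNFRSF10A stood at 14.1 and 11.5 CPM for MKN45, 15.5 and 14.9 for HER2R, and 18.7 and 16.6 for CEAR, without overlap between lines, and its log2 fold change for CEAR relative to MKN45 came to 0.46 (SE 0.185, edgeR adjusted p = 0.197), with edgeR adjusted p = 0.0459 with the block. TNFRSF10B stood at 94.0 and 77.5 CPM for MKN45, 99.2 and 77.5 for HER2R, and 122 and 93.3 for CEAR, so the lines overlapped. Its log2 fold change was 0.33 (SE 0.200, edgeR adjusted p = 0.383) in CEAR (edgeR adjusted p = 0.0403 with the block) and 0.04 (SE 0.200, edgeR adjusted p = 0.911) in HER2R. HER2R against CEAR gave -0.29 for it (edgeR adjusted p = 0.371, 0.0468 with the block). TNFRSF1A, the main receptor for TNF, was at 74.5 and 54.8 CPM for MKN45, 46.5 and 49.4 for HER2R, and 43.9 and 41.1 for CEAR. Both derivatives lay below both MKN45 libraries. The fitted log2 change was -0.43 (SE 0.174, edgeR adjusted p = 0.163) in HER2R and -0.60 (SE 0.174, edgeR adjusted p = 0.0973) in CEAR, with edgeR adjusted p = 0.0456 and 0.0148 with the block.

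The decoy receptors of TRAIL lay on opposite sides of MKN45 in both derivatives. TNFRSF10C, a decoy anchored to the membrane without a signalling tail, stood at 6.43 and 10.8 CPM for MKN45, 4.38 and 2.86 for HER2R, and 2.50 and 2.45 for CEAR. Every library of a derivative lay below both MKN45 libraries, but the MKN45 libraries differed between themselves more than in any other line. The fall in CEAR passed the test, with a log2 fold change of -1.79 (SE 0.359, edgeR adjusted p = 0.0394). Between libraries of the same number it was -1.36 for number 1 and -2.13 for number 2. The CEAR call held on dropping MKN45 library 1 (-2.11, edgeR adjusted p = 0.0469). It ended with any other library left out (edgeR adjusted p = 0.128 on dropping MKN45 library 2, 0.141 on dropping CEAR library 1, 0.153 on dropping CEAR library 2, 0.0742 on dropping HER2R library 1 and 0.0722 on dropping HER2R library 2). It also ended with no filter (0.0514) and in the fit to MKN45 and CEAR alone (0.0712). For HER2R the log2 fold change was -1.24 (SE 0.348, edgeR adjusted p = 0.0725), with edgeR adjusted p = 0.0183 with the block. DESeq2 called TNFRSF10C lower in HER2R (adjusted p = 0.0162) and in CEAR. TNFRSF10D, a decoy with a truncated death domain, stood at 44.3 and 29.6 CPM for MKN45, 57.6 and 45.8 for HER2R, and 74.4 and 53.8 for CEAR. Its libraries in both derivatives lay above both MKN45 libraries, the opposite order to TNFRSF10C. The fitted log2 change was 0.48 (SE 0.255, edgeR adjusted p = 0.268) in HER2R and 0.79 (SE 0.255, edgeR adjusted p = 0.125) in CEAR. It passed in both with the block (edgeR adjusted p = 0.00970 and 0.00150). DESeq2 called TNFRSF10D higher in CEAR and did not call it in HER2R (adjusted p = 0.2525). The 4 TRAIL receptor genes are neighbours on chromosome 8 with similar sequences, so reads could have been split between them and their levels are uncertain to that extent.

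TNFRSF1B encodes the second TNF receptor, which has no death domain and binds TRAF2 and IAPs. It stood at 42.5 and 42.9 CPM for MKN45, 64.6 and 75.9 for HER2R, and 52.0 and 60.9 for CEAR. MKN45, CEAR and HER2R were in that order with no overlap. The log2 fold change in HER2R against MKN45 was 0.72 (SE 0.148, edgeR adjusted p = 0.0333). By number it was 0.60 and 0.82. The HER2R call of TNFRSF1B ended without an MKN45 or HER2R library (edgeR adjusted p = 0.108 on dropping MKN45 library 1, 0.120 on dropping MKN45 library 2, 0.110 on dropping HER2R library 1, 0.175 on dropping HER2R library 2). It also ended with no filter on low counts (0.0528). In CEAR it was 0.40 (SE 0.147, edgeR adjusted p = 0.165), with edgeR adjusted p = 0.0288 with the block. HER2R against CEAR gave 0.32 (edgeR adjusted p = 0.196, 0.0486 with the block).

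Behind the receptors, the adaptors FADD and TRADD lay on opposite sides of MKN45 in HER2R, and neither passed the edgeR test without the block. FADD links FAS and the TRAIL receptors to caspase-8, and it stood at 44.8 and 43.1 CPM for MKN45, 59.1 and 58.8 for HER2R, and 44.1 and 41.2 for CEAR. HER2R lay above the other lines, which overlapped. The fitted log2 change was 0.42 (SE 0.123, edgeR adjusted p = 0.0787) against MKN45 and 0.47 (SE 0.123, edgeR adjusted p = 0.0528) against CEAR. The block called both (edgeR adjusted p = 0.0145 and 0.00850), as did DESeq2 (adjusted p = 0.0222 and 0.00894). TRADD is the adaptor of TNFRSF1A, and it stood at 10.8 and 14.4 CPM for MKN45, 5.73 and 7.07 for HER2R, and 10.1 and 14.2 for CEAR. HER2R lay below the other lines. The fitted log2 change was -0.97 (SE 0.270, edgeR adjusted p = 0.0704) against MKN45 and -0.93 (SE 0.271, edgeR adjusted p = 0.0678) against CEAR, again called with the block (edgeR adjusted p = 0.00338 and 0.00390) and by DESeq2 (adjusted p = 0.0127 and 0.0163). FBXL8 overlaps TRADD on the other strand, with up to 205 counts in a library where TRADD had 225 to 633, and the limit given for FAS applies.

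RIPK1, the kinase that relays TNF signals to NF-kappaB or to caspase-8 and RIPK3, split the derivatives. It stood at 54.5 and 54.5 CPM for MKN45, 41.3 and 42.9 for HER2R, and 75.4 and 72.9 for CEAR. The libraries of a line differed by under 3 CPM, HER2R lay below MKN45 and CEAR above it. HER2R against CEAR was called, with a log2 fold change of -0.82 (SE 0.119, edgeR adjusted p = 0.0130), which was -0.87 for number 1 and -0.76 for number 2. Against MKN45 the log2 fold change was -0.37 (SE 0.118, edgeR adjusted p = 0.0972) in HER2R and 0.44 (SE 0.118, edgeR adjusted p = 0.0795) in CEAR, with edgeR adjusted p = 0.0228 and 0.0135 with the block. DESeq2 called RIPK1 lower in HER2R (adjusted p = 0.0469) and higher in CEAR. The call of RIPK1 between the derivatives ended without any 1 of their 4 libraries (edgeR adjusted p = 0.0917 on dropping HER2R library 1, 0.0923 on dropping HER2R library 2, 0.0624 on dropping CEAR library 1, 0.0629 on dropping CEAR library 2). The log2 fold change then ran from -0.85 to -0.79. The 250 bases before the RefSeq start of RIPK1 (GRCh38.p14, chr6:3063717-3063966, plus strand) are shown because RIPK1 had the smallest adjusted p of the 31 genes between the derivatives. Capitals mark matches to 5 promoter motifs, searched on both strands with overlaps kept: the GC box GGGCGG, the CCAAT box CCAAT, the ETS core CCGGAAG, the hypoxia response core ACGTG and the STAT site TTCNNNGAA.
RIPK1: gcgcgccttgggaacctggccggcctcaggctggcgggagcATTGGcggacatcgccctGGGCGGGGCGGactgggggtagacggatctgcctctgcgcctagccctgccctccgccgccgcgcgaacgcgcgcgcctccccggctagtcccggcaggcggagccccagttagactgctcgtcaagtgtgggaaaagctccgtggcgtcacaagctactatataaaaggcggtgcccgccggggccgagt
They hold 2 GC boxes and 1 CCAAT box. Of 27305 such windows in the RefSeq table, 42.3% held a GC box, 33.0% a CCAAT box, 18.7% a hypoxia response core, 8.82% an ETS core and 6.78% a STAT site. Of the 31 genes, 22 matched the promoter table, and 16 of these held a GC box. TNFRSF1B, called in HER2R against MKN45, has 2 GC boxes in its window, which overlap by 1 base (chr1:12166741-12166990, plus strand).
TNFRSF1B: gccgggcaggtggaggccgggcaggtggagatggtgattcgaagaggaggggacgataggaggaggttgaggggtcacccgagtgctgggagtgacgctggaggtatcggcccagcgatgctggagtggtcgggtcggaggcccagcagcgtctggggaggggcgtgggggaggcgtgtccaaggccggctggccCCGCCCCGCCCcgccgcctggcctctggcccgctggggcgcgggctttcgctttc
A match is a description of the letters and not a binding site.

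RIPK3 and MLKL carry out necroptosis, a lytic death that needs no caspase. RIPK3 was among the lowest genes of the group, at 2.68 to 5.14 CPM over the 6 libraries, and MLKL stood at 53.8 to 73.1 CPM. For both, every library of the derivatives lay below both MKN45 libraries. Non-overlap of this kind was common among all tested genes. In HER2R against MKN45 it held for 57.1% of them (27.8% higher, 29.3% lower) and for 25 members (9 higher, 16 lower). In CEAR against MKN45 it held for 50.6% (25.0% higher, 25.6% lower) and for 24 members (8 higher, 16 lower). Between the derivatives it held for 61.4% (31.0% higher in HER2R, 30.3% lower) and for 22 members (13 higher, 9 lower). Neither passed the test in either derivative (log2 fold change of RIPK3 -0.63 in HER2R and -0.56 in CEAR, of MLKL -0.29 and -0.24, edgeR adjusted p = 0.226 to 0.363). GSDMD, whose cleaved product forms the pores of pyroptosis, stood at 56.5 to 70.1 CPM, and its log2 fold change was 0.18 in HER2R and -0.06 in CEAR (edgeR adjusted p = 0.361 and 0.819).

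No caspase among the 31 genes passed the edgeR test without the block. CASP8, the initiator recruited by FADD, stood at 33.3 and 38.2 CPM for MKN45, 25.2 and 25.9 for HER2R, and 27.3 and 26.3 for CEAR, with both derivatives below MKN45. Its log2 change was -0.49 (SE 0.144, edgeR adjusted p = 0.0812) in HER2R and -0.42 (SE 0.143, edgeR adjusted p = 0.145) in CEAR, and the block called both (edgeR adjusted p = 0.0167 and 0.0372). DESeq2 called CASP8 in HER2R (adjusted p = 0.0293) and not in CEAR (0.0870). CASP10, its close relative, stood at 7.62 to 9.89 CPM with edgeR adjusted p from 0.382 to 0.681 in the 3 comparisons. CASP9, the initiator that the apoptosome activates, stood at 8.63 and 9.32 CPM for MKN45, 10.2 and 9.69 for HER2R, and 7.68 and 7.73 for CEAR (log2 fold change 0.15 in HER2R and -0.22 in CEAR, edgeR adjusted p = 0.644 and 0.556). CASP6, an executioner caspase, stood at 34.8 and 30.2 CPM for MKN45, 33.8 and 29.1 for HER2R, and 53.1 and 40.0 for CEAR. CEAR was the high line there, with log2 fold change 0.52 (SE 0.187, edgeR adjusted p = 0.163) against MKN45 (edgeR adjusted p = 0.0131 with the block). HER2R against CEAR gave -0.57 for it (edgeR adjusted p = 0.0934, 0.00638 with the block).

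Of the 3 caspase inhibitors, XIAP was the one that edgeR called without the block. XIAP binds and blocks caspase-9 and the executioner caspases. It stood at 55.5 and 57.6 CPM for MKN45, 46.5 and 47.9 for HER2R, and 29.1 and 29.7 for CEAR. All 3 lines were apart, and the libraries of a line differed by under 3 CPM. The fall in CEAR was -0.94 (SE 0.123, edgeR adjusted p = 0.0128) on the log2 scale, and it was -0.93 and -0.96 within numbers 1 and 2. HER2R exceeded CEAR by 0.68 (SE 0.123, edgeR adjusted p = 0.0221) on the same scale, and its own difference from MKN45, -0.26 (SE 0.122, edgeR adjusted p = 0.219), did not pass. Leaving out an MKN45 or CEAR library ended the CEAR call of XIAP (edgeR adjusted p = 0.0502 on dropping MKN45 library 1, 0.0573 on dropping MKN45 library 2, 0.0742 on dropping CEAR library 1, 0.0744 on dropping CEAR library 2), while the log2 fold change stayed between -0.96 and -0.92. The XIAP call between the derivatives ended without any of their own libraries (edgeR adjusted p = 0.109 on dropping HER2R library 1, 0.123 on dropping HER2R library 2, 0.105 on dropping CEAR library 1, 0.103 on dropping CEAR library 2). The 250 bases before the RefSeq start of XIAP (chrX:123859458-123859707, plus strand) are shown with the same marking.
XIAP: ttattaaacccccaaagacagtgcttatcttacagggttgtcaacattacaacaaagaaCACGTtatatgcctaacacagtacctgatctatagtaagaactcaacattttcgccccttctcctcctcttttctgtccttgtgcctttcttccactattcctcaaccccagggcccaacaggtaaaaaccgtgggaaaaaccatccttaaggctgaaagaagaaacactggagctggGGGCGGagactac
They hold 1 GC box, 13 bases before the start, and 1 hypoxia response core.

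CFLAR encodes FLIP, which takes the place of caspase-8 on FADD. It stood at 29.9 and 25.7 CPM for MKN45, 23.3 and 16.2 for HER2R, and 29.1 and 18.1 for CEAR, and library 1 exceeded library 2 in every line. This was a log2 change of -0.49 (SE 0.281, edgeR adjusted p = 0.302) in HER2R, with edgeR adjusted p = 0.0277 with the block, and -0.24 in CEAR (edgeR adjusted p = 0.678). BIRC2, which encodes the ubiquitin ligase cIAP1, stood at 22.1 and 26.6 CPM for MKN45, 24.9 and 23.8 for HER2R, and 25.3 and 25.2 for CEAR (log2 fold change 0.00 in HER2R and 0.05 in CEAR, edgeR adjusted p = 0.999 and 0.884). DIABLO encodes the mitochondrial protein that displaces IAPs from caspases. It stood at 61.0 and 62.0 CPM for MKN45, 48.0 and 54.4 for HER2R, and 44.6 and 42.3 for CEAR, with both derivatives below MKN45. That was a log2 change of -0.27 in HER2R (edgeR adjusted p = 0.235) and -0.50 (SE 0.130, edgeR adjusted p = 0.0749) in CEAR, with edgeR adjusted p = 0.0121 with the block. DESeq2 also called DIABLO lower in CEAR.

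Of the 3 anti-apoptotic relatives of BCL2, MCL1 was high in one derivative and BCL2L1 low in the other. MCL1 is a short-lived guardian of the mitochondrial membrane. It stood at 468 and 351 CPM for MKN45, 929 and 889 for HER2R, and 569 and 458 for CEAR. Both HER2R libraries were well above all others, and MKN45 and CEAR overlapped. The rise in HER2R was 1.15 (SE 0.202, edgeR adjusted p = 0.0230) on the log2 scale, and it was 0.99 for number 1 and 1.34 for number 2. CEAR against MKN45 gave 0.33 (SE 0.200, edgeR adjusted p = 0.391), and HER2R exceeded CEAR by 0.82 (SE 0.201, edgeR adjusted p = 0.0432). The HER2R call of MCL1 held on dropping MKN45 library 1 (1.38, edgeR adjusted p = 0.0427) and ended on dropping MKN45 library 2 (0.0903), HER2R library 1 (0.131) or HER2R library 2 (0.118). The MCL1 call between the derivatives ended on dropping HER2R library 1 (edgeR adjusted p = 0.173), HER2R library 2 (0.162), CEAR library 1 (0.105) or CEAR library 2 (0.209). It also ended with library size alone as the scale (0.0517) and with no filter (0.0607). MCL1 lies on chromosome 1 at 150574551 to 150579738 in GENCODE 29. It overlaps ADAMTSL4-AS1 of the same strand, a gene that had at most 84 counts in a library.

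BCL2L1 encodes BCL-XL, and its short splice form BCL-XS cannot be told apart in counts per gene. It stood at 437 and 384 CPM for MKN45, 361 and 399.7 for HER2R, and 233 and 172 for CEAR. Here CEAR was the low line, and HER2R and MKN45 overlapped. The fall in CEAR was -1.02 (SE 0.185, edgeR adjusted p = 0.0298) on the log2 scale, which was -0.91 for number 1 and -1.16 for number 2. HER2R exceeded CEAR by 0.91 (SE 0.185, edgeR adjusted p = 0.0282) and did not differ past the test from MKN45, at -0.11 (SE 0.183, edgeR adjusted p = 0.738). Leaving out any 1 of the 6 libraries ended the CEAR call of BCL2L1. The edgeR adjusted p was then 0.105 on dropping MKN45 library 1, 0.0767 on dropping MKN45 library 2, 0.0764 on dropping HER2R library 1, 0.0741 on dropping HER2R library 2, 0.0514 on dropping CEAR library 1 and 0.137 on dropping CEAR library 2, with log2 fold changes from -1.26 to -0.82. The fit to MKN45 and CEAR alone did not call it either (0.0712). The BCL2L1 call between the derivatives held on dropping CEAR library 1 (0.0498) and ended on dropping CEAR library 2 (0.130), HER2R library 1 (0.115) or HER2R library 2 (0.145). The 250 bases before the RefSeq start of BCL2L1 (chr20:31723964-31724213, minus strand) hold none of the 5 motifs.
BCL2L1: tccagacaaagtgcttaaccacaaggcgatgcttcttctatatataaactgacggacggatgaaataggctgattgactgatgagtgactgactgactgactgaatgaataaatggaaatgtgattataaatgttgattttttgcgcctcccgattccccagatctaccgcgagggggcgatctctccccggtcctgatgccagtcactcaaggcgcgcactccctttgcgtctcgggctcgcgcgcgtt
That says only that these letters are absent from this window, whatever factor may bind there.

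BCL2 itself was low, at 6.89 and 5.34 CPM for MKN45, 6.39 and 5.79 for HER2R, and 7.76 and 7.50 for CEAR. That was a log2 change of -0.01 in HER2R and 0.31 in CEAR (edgeR adjusted p = 0.983 and 0.470). Per kilobase of exon (the union of GENCODE 29 exons), the means in MKN45 were 124 CPM for BCL2L1, 93.7 for MCL1 and 0.520 for BCL2. In HER2R they were 115, 208 and 0.518, and in CEAR 61.0, 117 and 0.649. On that scale BCL2L1 led in MKN45 and MCL1 led in both derivatives. The log2 ratio of MCL1 to BCL2L1 counts was 0.10 and -0.13 in the MKN45 libraries, 1.36 and 1.15 in HER2R and 1.29 and 1.41 in CEAR. The ratio was thus higher in all 4 libraries of the derivatives, by 1.27 in HER2R and 1.37 in CEAR, with MCL1 called higher in the first and BCL2L1 called lower in the second. This ratio was chosen after its values were seen and both differences use the same MKN45 libraries, so it is given without a test.

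**Figure D2:**
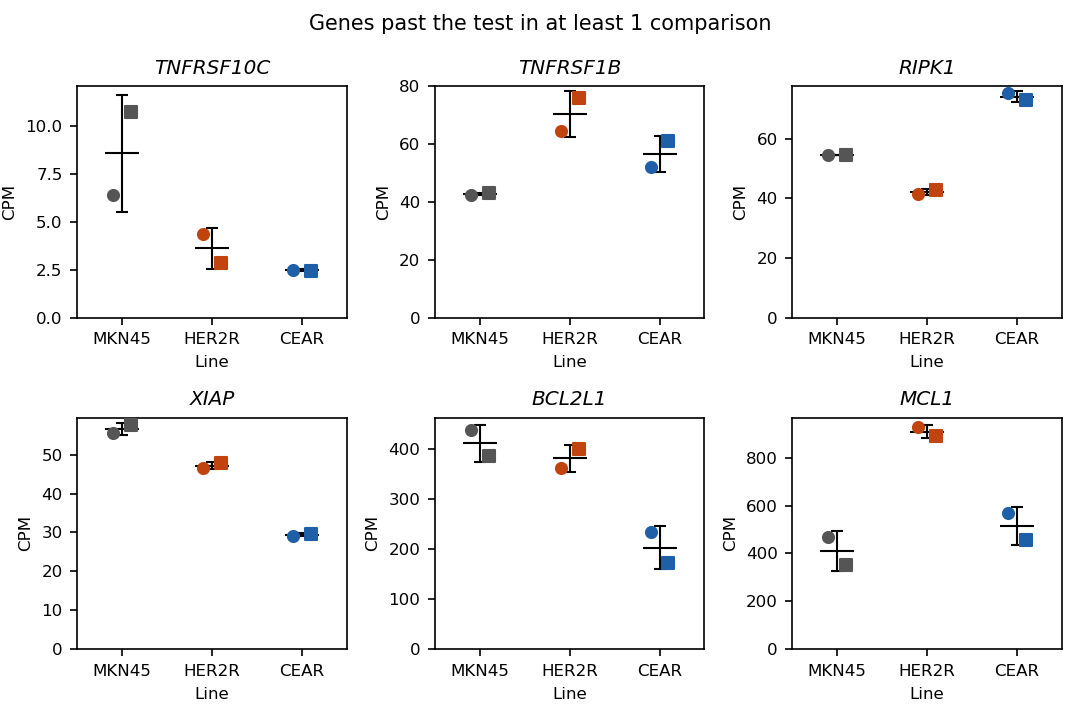
CPM in each library (circle for library 1, square for library 2) with the line mean and SD as black bars (n = 2), for the 6 genes past the test in at least 1 comparison. MCL1 is at 889 and 929 CPM in HER2R and at 569 CPM or less elsewhere, and BCL2L1 and XIAP are lowest in CEAR.

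On the pro-apoptotic side of the family, BAX and BAK1 encode the pore formers of the outer mitochondrial membrane. BAX stood at 81.1 and 75.2 CPM for MKN45, 56.8 and 54.2 for HER2R, and 48.4 and 55.5 for CEAR, with both derivatives below MKN45. On the log2 scale the change was -0.49 (SE 0.133, edgeR adjusted p = 0.0647) in HER2R and -0.59 (SE 0.133, edgeR adjusted p = 0.0537) in CEAR, and both passed with the block (edgeR adjusted p = 0.0118 and 0.00693). DESeq2 called BAX lower in HER2R (adjusted p = 0.0173) and in CEAR. BAK1 stood at 37.2 and 31.9 CPM for MKN45, 30.1 and 27.3 for HER2R, and 32.9 and 27.9 for CEAR and differed less, by -0.27 and -0.19 on the log2 scale (edgeR adjusted p = 0.328 and 0.562).

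The BH3-only genes, whose products sense death signals, had fold changes of both signs. BID, which caspase-8 and granzyme B cleave into an active fragment, stood at 45.6 and 40.5 CPM for MKN45, 23.3 and 29.6 for HER2R, and 33.3 and 36.5 for CEAR. HER2R was lowest and MKN45 highest, without overlap. Its log2 change was -0.70 (SE 0.169, edgeR adjusted p = 0.0509) in HER2R, just outside the threshold, and edgeR adjusted p = 0.00647 with the block. It was also called with library size alone as the scale (edgeR adjusted p = 0.0452) and by DESeq2 (adjusted p = 0.00653). In CEAR it was -0.30 (edgeR adjusted p = 0.342). BCL2L11, which encodes BIM, stood at 30.8 and 35.2 CPM for MKN45, 43.4 and 41.7 for HER2R, and 38.4 and 40.1 for CEAR, with both derivatives above MKN45. This was a log2 change of 0.37 (SE 0.137, edgeR adjusted p = 0.141) in HER2R, with edgeR adjusted p = 0.0382 with the block, and 0.25 in CEAR (edgeR adjusted p = 0.336). PMAIP1 encodes NOXA, the BH3-only partner of MCL1, and stood at 5.01 and 4.23 CPM for MKN45, 2.85 and 3.93 for HER2R, and 6.72 and 5.30 for CEAR. HER2R was low and CEAR high, with log2 fold change -0.82 (SE 0.283, edgeR adjusted p = 0.101) between them (edgeR adjusted p = 0.0363 with the block).

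Downstream of the pore, CYCS encodes cytochrome c. It stood at 516 and 496 CPM for MKN45, 302 and 390.2 for HER2R, and 319 and 374 for CEAR, with both derivatives below MKN45. On the log2 scale the change was -0.55 (SE 0.175, edgeR adjusted p = 0.0989) in HER2R and -0.54 (SE 0.175, edgeR adjusted p = 0.125) in CEAR, and both passed with the block (edgeR adjusted p = 0.0138 and 0.0177). DESeq2 called CYCS lower in HER2R (adjusted p = 0.0330). In CEAR it called CYCS and DIABLO lower, and not APAF1. CYCS has many processed pseudogenes, to which some of its reads may have been assigned. APAF1, the scaffold of the apoptosome, stood at 10.4 to 16.6 CPM, also lower in the derivatives, with log2 fold change -0.38 in HER2R and -0.49 in CEAR (edgeR adjusted p = 0.236 and 0.187).

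Activators and inhibitors were then set side by side by count and median. In HER2R against MKN45, edgeR called 0 of 21 activators. At an unadjusted p under 0.05, 2 activators were higher and 6 lower, where 13.9% and 14.8% of all genes were. DESeq2 called 1 higher and 5 lower, where it called 9.10% and 9.75% of all genes. Of the 8 inhibitors, edgeR called 1 higher (MCL1) and 0 lower. At the unadjusted threshold 1 inhibitor was higher and 1 lower, as in DESeq2. The median log2 fold change was -0.27 over activators and -0.06 over inhibitors, beside -0.02 over all tested genes. With the block 2 activators were higher and 6 lower, and 2 inhibitors higher and 2 lower, where 16.2% and 17.5% of all genes were.

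In CEAR against MKN45, edgeR again called 0 of 21 activators. At an unadjusted p under 0.05, 2 were higher and 6 lower (10.8% and 12.5% of all genes), and DESeq2 called 0 higher and 4 lower (6.28% and 7.75%). Of the 8 inhibitors 0 rose and 3 fell, namely TNFRSF10C, XIAP and BCL2L1. At the unadjusted threshold 1 inhibitor was higher and 3 lower, as in DESeq2. The median was -0.24 over activators and -0.09 over inhibitors, beside 0.00 over all tested genes. With the block 3 activators were higher and 5 lower, and 1 inhibitor higher and 3 lower, where 12.0% and 13.8% of all genes were. The comparisons with MKN45 share its libraries, so their medians are not independent.

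In HER2R against CEAR, which does not use MKN45, edgeR called 0 of 21 activators. At the unadjusted threshold 2 were higher and 3 lower (16.3% and 15.6% of all genes), and DESeq2 called 2 and 1 (11.9% and 11.0%). Of the 8 inhibitors 3 were higher in HER2R (XIAP, BCL2L1 and MCL1) and 0 lower, a count that was the same in DESeq2 and at the unadjusted threshold. The medians were 0.00 over activators and 0.25 over inhibitors, beside 0.00 over all. With the block 2 activators were higher and 4 lower, and 3 inhibitors higher and 0 lower, where 19.7% and 18.6% of all genes were. An effect past the threshold for an inhibitor and not for an activator does not show that the classes differ, and that difference was not tested.

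**Figure D3:**
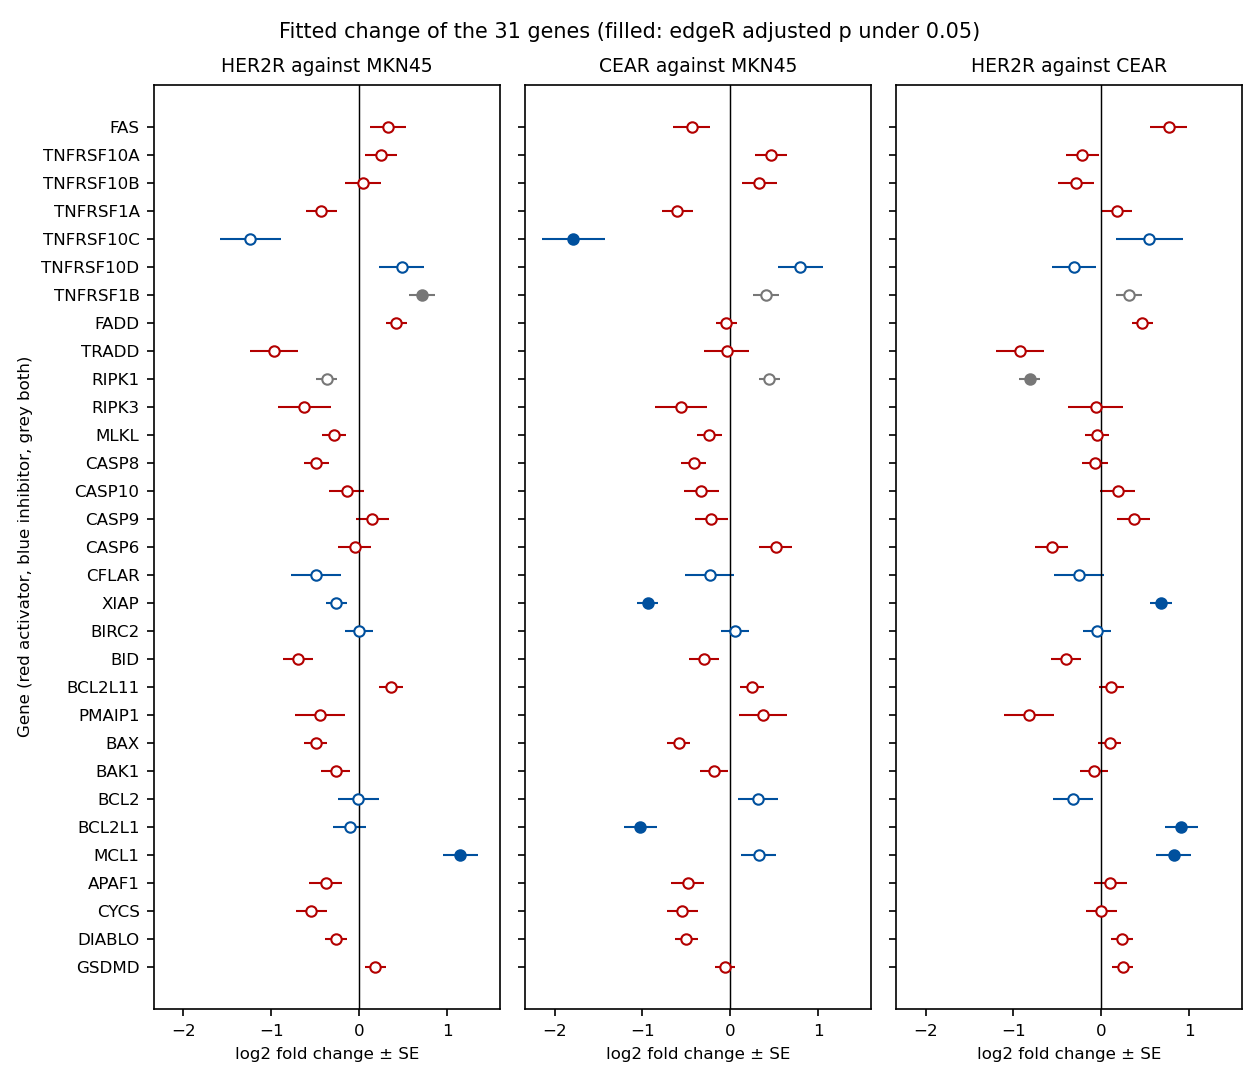
Fitted log2 fold change of each gene with its SE in the 3 comparisons, red for activators, blue for inhibitors and grey for both, with filled points at an edgeR adjusted p under 0.05. Every filled point is an inhibitor or a gene of both roles, where edgeR called 9.74%, 6.19% and 14.1% of all tested genes. In HER2R and CEAR against MKN45, 14 and 16 of 21 activators lie left of 0. So do 5 and 4 of 8 inhibitors, and 7669 and 7487 of all 14958 tested genes.

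Pairs of an activator with its direct inhibitor or decoy, and DIABLO with the IAPs that it displaces, were read as log2 ratios of counts. Each ratio was taken within a library, which needs no scaling between libraries. Groups of 2 libraries cannot give an exact permutation p below 0.333, so these are descriptions. BAX over MCL1 was -2.53 and -2.22 for MKN45, -4.03 and -4.04 for HER2R, and -3.56 and -3.04 for CEAR. Relative to MKN45 it differed by -1.66 in HER2R and by -0.92 in CEAR, without overlap. BAK1 over MCL1 gave differences of -1.43 and -0.52. Against BCL2L1 the derivatives differed in direction, since BAX over BCL2L1 was -0.38 in HER2R and 0.44 in CEAR relative to MKN45. BAK1 over BCL2L1 was -0.16, with overlap, and 0.85. Against the scarce BCL2, both pore formers had lower ratios in both derivatives, by -0.27 to -0.92.

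For the IAPs, CASP9 over XIAP was -2.68 and -2.63 for MKN45, -2.19 and -2.30 for HER2R, and -1.92 and -1.94 for CEAR, rising in that order without overlap. DIABLO over XIAP was near MKN45 in HER2R (-0.01) and higher in CEAR (0.44). DIABLO over BIRC2 was lower in both, by -0.27 and -0.56. CASP8 over CFLAR overlapped between all lines (0.16 and 0.57 for MKN45, 0.11 and 0.67 for HER2R, -0.09 and 0.54 for CEAR), with library 2 above library 1 each time. At the TRAIL receptors, the ratios of TNFRSF10A and TNFRSF10B to TNFRSF10C were higher in the derivatives by 1.27 to 2.22. Their ratios to TNFRSF10D were lower by -0.48 to -0.25, with overlap for TNFRSF10A in HER2R. The pairs reuse genes and are not independent of one another.

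**Figure D4:**
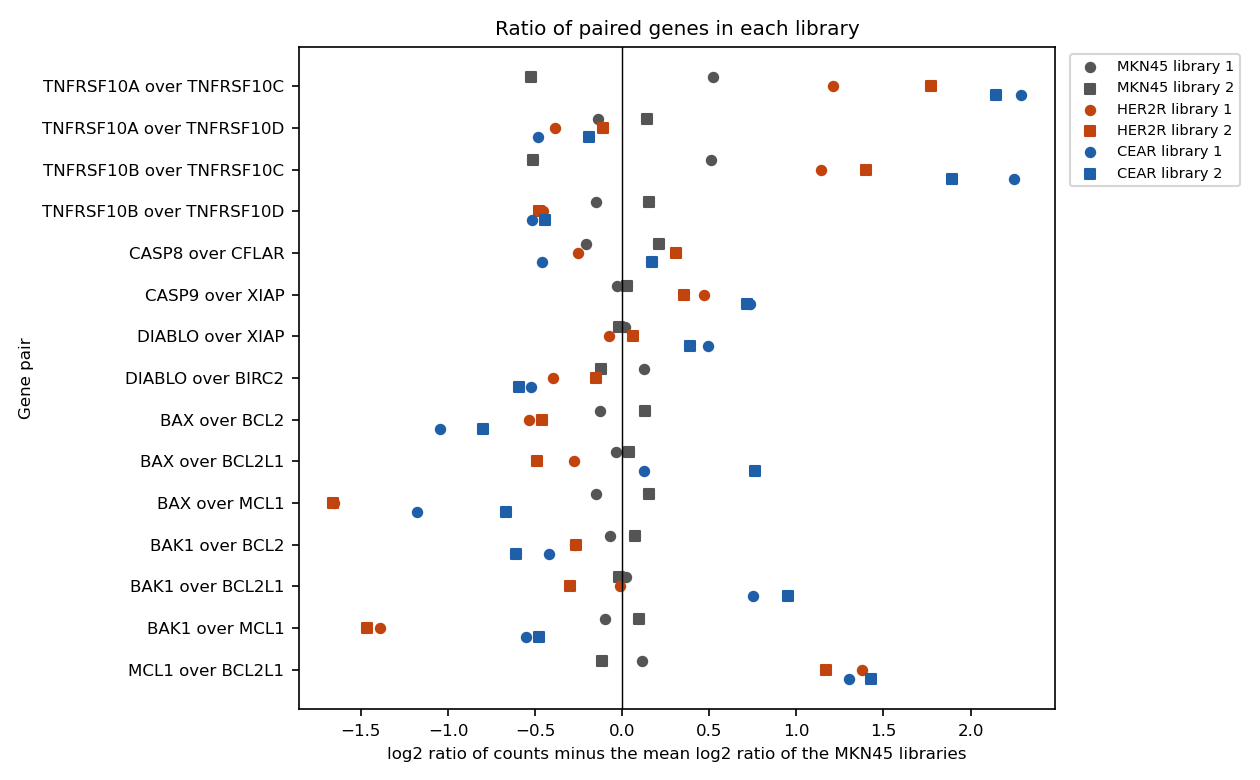
Log2 ratio of the counts of paired genes in each library, minus the mean of the MKN45 libraries, with circles for library 1 and squares for library 2. The ratios of BAX and BAK1 to MCL1 are lowest in HER2R, and the ratio of MCL1 to BCL2L1 is higher in all 4 libraries of the derivatives.

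Other genes of the pathway were counted in the same way. Of 87 measured symbols outside the 31, 74 were tested. In HER2R against MKN45, 5 rose, 3 fell and 66 did not pass. In CEAR 2 rose, 3 fell and 69 did not, and between the derivatives 6 were higher in HER2R and 4 lower. With the block the counts were 14 higher and 11 lower, 8 and 15, and 17 and 10, in that order. The counts higher in HER2R, without and with the block, include GSDMC. That gene passed the filter only through its HER2R libraries, where it was high, so its calls are not a test. Over all genes the shares called were 9.74%, 6.19% and 14.1%, and 33.7%, 25.8% and 38.2% with the block. Among 18 tested regulators of the receptor complex, TRAF2, the ubiquitin ligase scaffold that TNFRSF1B binds, rose in HER2R (log2 fold change 0.66, edgeR adjusted p = 0.0422). SPATA2, which brings the deubiquitinase CYLD to the TNF receptor complex, fell there (-1.03, edgeR adjusted p = 0.0141) and was lower than in CEAR (-0.71, edgeR adjusted p = 0.0312). CYLD was lower in HER2R than in CEAR too (-0.59, edgeR adjusted p = 0.0494), and DAP3 was higher (0.52, edgeR adjusted p = 0.0395). In CEAR against MKN45, 0 of these 18 passed by edgeR. The count was also 0 at an unadjusted p under 0.05 (23.3% of all genes) and by DESeq2 (14.0%).

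Of 11 tested ligands and further receptors, CD40, a TNF receptor relative without a death domain, rose in CEAR from 0.213 and 0.614 to 4.12 and 5.12 CPM (log2 fold change 3.54, edgeR adjusted p = 0.0115). EDAR, a death domain receptor of epithelial development, fell there from 13.4 and 24.2 to 2.48 and 5.35 CPM (-2.25, edgeR adjusted p = 0.0366). HER2R exceeded CEAR in EDAR (1.90, edgeR adjusted p = 0.0380) and in TNFRSF11B, a secreted decoy of TRAIL and RANKL (3.25, edgeR adjusted p = 0.0181), and was below it in CD40 (-1.77, edgeR adjusted p = 0.0321). In HER2R against MKN45 edgeR called 0 of these 11. At an unadjusted p under 0.05, 3 were higher (13.9% of all genes), and DESeq2 called 3 higher (9.10%). CD40 was above MKN45 in HER2R too, by 1.77 on the log2 scale (edgeR adjusted p = 0.0791, 0.0190 with the block).

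Of 16 tested other BCL2 family genes, BNIP3 (1.67, edgeR adjusted p = 0.0360) and BNIP3L (1.06, edgeR adjusted p = 0.0266), mitophagy receptors related to BH3-only proteins, rose in HER2R. BNIP3L also rose in CEAR (1.10, edgeR adjusted p = 0.0299), where the BH3-only gene BIK (-1.74, edgeR adjusted p = 0.0427) and the mitochondrial channel gene VDAC1 (-0.75, edgeR adjusted p = 0.0282) fell. BIK was lower in HER2R against MKN45 as well (-1.28, edgeR adjusted p = 0.0657, 0.0162 with the block). Between the derivatives it differed by 0.45 (edgeR adjusted p = 0.488). VDAC1 was higher in HER2R than in CEAR (0.59, edgeR adjusted p = 0.0362). Of 11 other caspases and substrates, PANX1, a channel that caspases open, rose in HER2R (1.22, edgeR adjusted p = 0.0151), and CASP2 fell (-0.78, edgeR adjusted p = 0.0229). In CEAR 0 of these 11 passed by edgeR. At an unadjusted p under 0.05, 2 were higher (10.8% of all genes), and DESeq2 called 1 higher (6.28%). Of the 6 tested other IAP genes and antagonists, edgeR and DESeq2 called 0 in each of the 3 comparisons. An unadjusted p under 0.05 was met by 1 of them, lower in CEAR than in MKN45 (12.5% of all genes). It was met by 0 in the other comparisons. With the block 1 was higher in HER2R against each of the other lines, namely BIRC6 (edgeR adjusted p = 0.000641 against MKN45 and 0.000669 against CEAR), and 1 was lower in CEAR against MKN45, namely XAF1 (edgeR adjusted p = 0.0479). BIRC6, a ubiquitin-conjugating IAP, stood at 132 and 78.7 CPM for MKN45, 227 and 142 for HER2R, and 129 and 82.4 for CEAR. Library 1 exceeded library 2 in every line, and HER2R exceeded MKN45 by 0.79 and 0.85 on the log2 scale within numbers 1 and 2.

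Genes tied to granule killing and lytic pores numbered 12 tested. SERPINB1, an inhibitor of neutrophil and granule proteases, fell in HER2R (-1.16, edgeR adjusted p = 0.0177). In CEAR against MKN45 it was -0.73 (edgeR adjusted p = 0.0712, 0.00484 with the block). There edgeR without the block called 0 of these 12, while 3 were lower with the block (13.8% of all genes) and by DESeq2 (7.75%). The gasdermin gene GSDMC had 1 and 2 counts for MKN45, 15 and 20 for HER2R, and 1 and 0 for CEAR. The ratio of summed counts, each relative to its library totals, was 14.9 for HER2R against MKN45 (95% counting interval 4.71 to 75.9) and 38.4 against CEAR (6.45 to 1558). These intervals cover counting error alone and not the spread between libraries. GSDMC passed the filter on low counts only through its HER2R libraries, where it was high. The ratios are therefore descriptions and not a test. The cathepsin CTSC was higher in HER2R than in CEAR (1.44, edgeR adjusted p = 0.0312) and CTSB lower (-0.79, edgeR adjusted p = 0.0380). SERPINB9, the inhibitor of granzyme B, is named after its values were seen because it acts directly on that route. It had 28 and 27 counts for MKN45, 38 and 39 for HER2R, and 28 and 16 for CEAR, or 0.360 to 0.995 CPM, and did not pass the test (log2 fold change 0.83 in HER2R and -0.10 in CEAR, edgeR adjusted p = 0.265 and 0.936).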

How the data were processed

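RNA of 6 libraries from 3 lines was measured by RNA-seq of stranded total RNA depleted of ribosomal RNA, per the labels' protocols. The deposited table holds raw counts per gene symbol, made by the authors. The submitters' processing notes name GRCh38 and limma without a role. For the aligner, counter, annotation and strand setting the status is: not given in the sources used here. All 6 columns matched a sample, and 0 did not.

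Counts were analysed with edgeR 4.0.16 in R 4.3.3: filterByExpr (14958 genes kept, 14786 removed), TMM, and the quasi-likelihood test on all 6 libraries with line as the term (3 residual degrees of freedom), Benjamini-Hochberg adjusted over all tested genes and called under 0.05. The method was checked on simulated data. Alternatives were DESeq2 1.42.0, a fit to the compared lines, each library left out, no filter, scaling by library size alone or by RLE, and the replicate block. The older quasi-likelihood method was added after seeing the data. Exon lengths and positions are from GENCODE 29, and promoters are from RefSeq (GRCh38.p14).

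The members and lists were chosen with earlier results of these data known. Values in each library are given for members called by the main fit or with the block and for the 3 largest changes in each direction of a comparison, and for members of the activator and inhibitor pairs, with the other members by range, and pathway genes by counts with called genes named. SERPINB9, BIRC6 and XAF1 were named after their values were seen. Deviations of same-numbered libraries correlated across genes at r = 0.468 (MKN45 and HER2R), 0.650 (MKN45 and CEAR) and 0.495 (HER2R and CEAR), so the numbers were treated as pairs, although nothing says what a number stands for. Libraries of a line were not duplicates (chi-square per degree of freedom 60.7 to 128).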

Additional observations from a re-analysis of the deposited data

How the results depend on the processing

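Directions were checked for member changes called by the main fit or with the block or among the 3 largest in a direction. None of these reversed under any alternative run, and other member changes were not checked. With the replicate block, the number of genes called rose from 1457 to 5040 (HER2R against MKN45), from 926 to 3861 (CEAR against MKN45) and from 2105 to 5717 (HER2R against CEAR), and the number of members from 2 to 14, 3 to 14 and 4 to 11. DESeq2 called 2820, 2098 and 3432 genes and 10, 9 and 7 members. The compared lines alone gave 405 genes and 1 member for CEAR against MKN45, and no filter gave 1 member for HER2R against MKN45. Leaving out 1 library gave 189 to 1136, 253 to 428 and 103 to 1856 genes and 0 to 2, 0 to 1 and 0 to 4 members in the 3 comparisons in that order, under the assumption that the lone library of a line varies as the other lines do. The cause of these changes was not tested, beyond fewer samples in those fits. RLE size factors and the older quasi-likelihood method, the latter chosen after seeing the data, changed no call among those checked member changes. With library size alone the median of all tested genes was 0.07 in CEAR against MKN45 and -0.07 in HER2R against CEAR. With 2 libraries a line, a member that missed the threshold was not shown to be unchanged.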
